A study of Mus musculus with 6 samples.

Results

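The unfolded protein response and the integrated stress response were examined through 34 genes in RNA-seq of neutrophils sorted from the uterus of a mouse tumour model. The genes were chosen by symbol and known role, as chaperones, degradation factors, sensors, transcription factors and metabolic targets of both pathways. This choice was made with earlier results of these data known. All 34 were found by Ensembl ID among the 43432 genes of the count tables, and all 34 passed the filter on low counts. They fell into 6 sensors and transcription factors, 14 chaperones and folding enzymes of the endoplasmic reticulum (ER), 3 factors of ER-associated degradation and 11 targets of the transcription factor ATF4.

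The unfolded protein response is the reaction of a cell to misfolded protein in the ER. Its membrane sensors PERK (gene Eif2ak3), IRE1 alpha (Ern1) and ATF6 raise the capacity for folding and degradation and slow the synthesis of new protein. PERK does the last by phosphorylating the initiation factor eIF2 alpha, a step shared with kinases that sense amino acid shortage, haem shortage or viral RNA, and this common branch is the integrated stress response. It favours translation of ATF4, which induces genes of amino acid uptake and synthesis together with Ddit3 (CHOP) and Trib3. Neutrophils arise through a secretory programme in which granule proteins are made in the ER, and XBP1 is known for its part in the differentiation of secretory leukocytes.

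Hyperoxia stood for 3 libraries from mice kept at 60% oxygen from postnatal day 18 to postnatal day 28, that is for 10 days. Normoxia stood for 3 libraries from mice kept in ambient air. All mice were of the strain C57BL/6 and 4 weeks old. Mice of both groups were of the tumour model that the labels call PRPL, which carries Cre at the progesterone receptor locus (Pgrcre/+), so no library came from a uterus outside this model. The neutrophils were sorted from the whole digested organ as CD45+ CD11b+ cells with high Ly6G. Separate animals are not stated for the libraries, and p-values therefore reflect only how far these 6 samples lie apart, which could be partly technical.

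Libraries held 38683293 to 61715617 counts, and the 34 genes took 0.44% to 0.968% of a library. Values are given as normalised CPM, that is counts scaled for sequencing depth with TMM factors, and 3 counts corresponded to 0.0486 to 0.0776 CPM before scaling. Neutrophil markers summed to 39537 to 103784 CPM in hyperoxia and to 39987 to 58258 CPM in normoxia. Most of each sum was S100a8 and S100a9. Of the 8 markers 6 had a positive log2 difference, and Csf3r (-0.15) and Cxcr2 (-0.07) had negative ones. Ly6g ran from 38.9 to 351 CPM in hyperoxia and from 53.4 to 146 CPM in normoxia. Hyperoxia library 2 stood apart: a chi-square of the counts, per degree of freedom, was 473 to 726 between it and each other library, against 29.8 to 221 between pairs without it. It was also the deepest library, and this measure grows with depth. Libraries in hyperoxia were further apart than those in normoxia: the SD of log2(CPM + 1) was wider in hyperoxia for 28 of the 34 genes and for 81.8% of all 12908 genes tested. Sums of several marker lists of other cells were higher in hyperoxia. Macrophage markers, 11 of 12 with a positive log2 difference, summed to 1906 to 3028 CPM in hyperoxia and 1409 to 1508 CPM in normoxia. Endothelial markers summed to 27.1 to 63.3 CPM in hyperoxia and 8.87 to 14.2 CPM in normoxia, and stromal markers to 35.2 to 243 CPM in hyperoxia and 18.0 to 56.6 CPM in normoxia, so that stromal sums overlapped. Dendritic markers summed to 688 to 2068 CPM in hyperoxia and 454 to 491 CPM in normoxia, and smooth muscle markers to 24.4 to 50.3 CPM in hyperoxia and 15.6 to 22.1 CPM in normoxia. Sums of T and NK markers (5.06 to 20.9 CPM in hyperoxia and 2.90 to 8.55 CPM in normoxia) and B cell markers (1.97 to 7.41 CPM in hyperoxia and 1.33 to 2.44 CPM in normoxia) overlapped, and 0 of the markers were at 0 in every library.

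The comparison of hyperoxia with normoxia asked whether added oxygen altered the transcripts of both stress pathways in these neutrophils. The log2 differences of the 34 genes lay on both sides of 0. All 6 sensors and transcription factors had a log2 difference below 0, while 10 of 14 chaperones and folding enzymes and 8 of 11 ATF4 targets had one above 0, as did 53.7% of all genes tested. With 1 library left out, Ern1 alone of the 6 rose above 0, to at most 0.08. It did so in 2 such fits, including that without hyperoxia replicate 2. In edgeR's quasi-likelihood test with Benjamini-Hochberg adjustment over all genes, 0 of the 34 passed an adjusted p of 0.05, where 0% of all genes tested passed, and DESeq2 called 1, Sdf2l1, as higher and 0 as lower. edgeR put 2 of the 34 under an unadjusted p of 0.05 as higher (Hsp90b1 and Sdf2l1) and 4 as lower (Dnajb9, Ddit3, Eif2ak3 and Xbp1). The first count is 5.88% of the 34, against 9.10% of all genes tested, and the second is 11.8%, against 3.91%. DESeq2 called 3.65% of genes as higher and 0.411% as lower. Every hyperoxia library lay above every normoxia library for 3 of the 34 and below for 3, against 9.56% and 10.3% of all genes. The median log2 difference was 0.04 for the 34 genes and 0.04 for all genes tested.

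Single libraries decided part of these counts at an unadjusted p under 0.05, and the share of all genes moved with them. The count of higher genes was 7 without hyperoxia replicate 1, which is 20.6% of the 34 against 13.1% of all genes tested in that setting. It was 5 without hyperoxia replicate 2, or 14.7% against 10.6% of all genes. It was 1, or 2.94%, without hyperoxia replicate 3, normoxia replicate 1 or normoxia replicate 2, where 8.98%, 7.60% and 5.93% of all genes were higher. It was 3, or 8.82%, without normoxia replicate 3, against 9.15% of all genes. The count of lower genes stayed at 4, or 11.8%, without hyperoxia replicate 1, 2 or 3, against 5.23%, 3.68% and 6.45% of all genes. It was 2, or 5.88%, without normoxia replicate 1 or 2, against 1.56% and 1.10% of all genes. It was 1, or 2.94%, without normoxia replicate 3, against 1.13% of all genes.

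**Figure D1:**
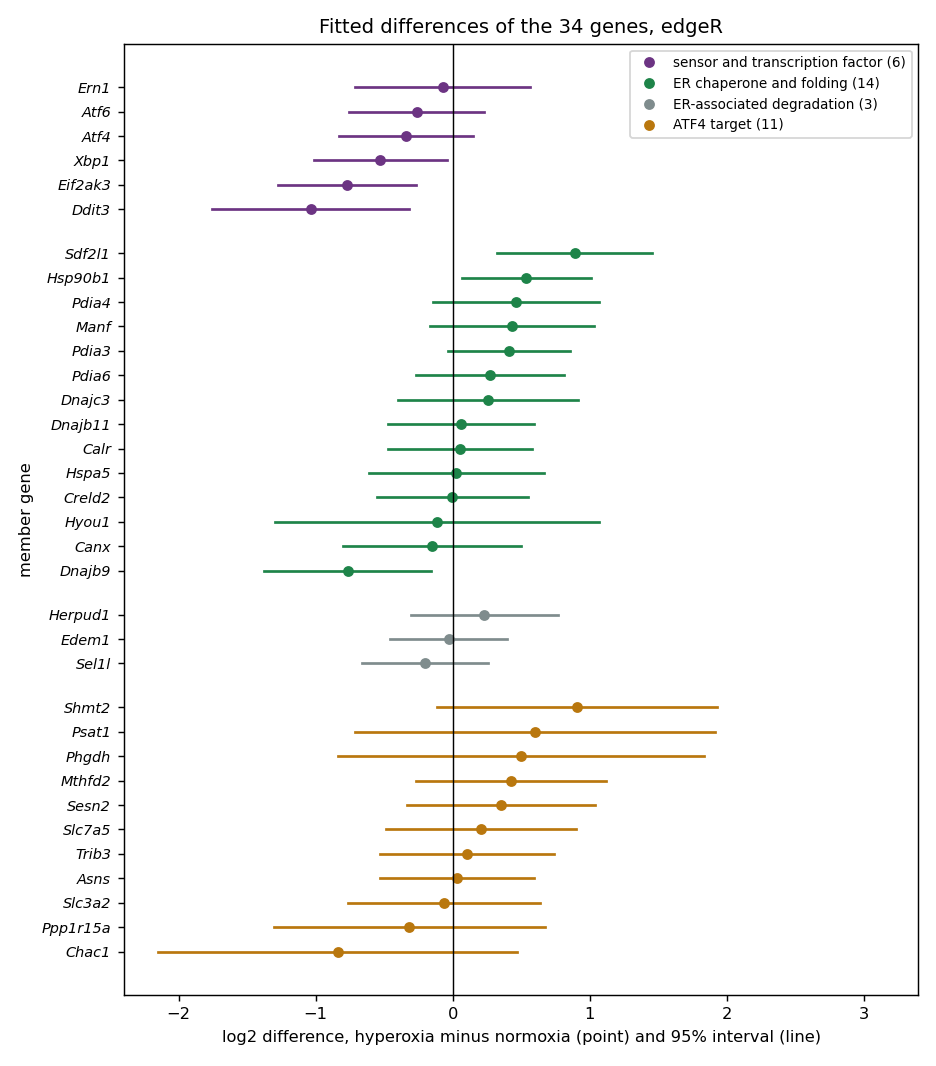
Fitted log2 difference (horizontal axis, hyperoxia minus normoxia) of each of the 34 genes (vertical axis), with a line for its 95% interval, coloured by role. All 6 sensors and transcription factors lie left of 0, and the intervals of Ddit3, Eif2ak3, Xbp1 and Dnajb9 lie wholly below 0 and those of Sdf2l1 and Hsp90b1 wholly above it.

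Of the sensors, Eif2ak3 was the one whose groups did not overlap under TMM scaling. It encodes PERK, the ER kinase that phosphorylates eIF2 alpha. Eif2ak3 (ENSMUSG00000031668, GRCm38 chromosome 6, 70844515 to 70905245) stood at 8.02, 7.44 and 6.29 CPM in hyperoxia libraries 1, 2 and 3, against 13.3, 13.8 and 10.0 CPM in normoxia libraries 1, 2 and 3. Every hyperoxia library was below the lowest normoxia library. Its log2 difference was -0.77 ± 0.22 (SE), and the adjusted p was 0.217 by edgeR and 0.104 by DESeq2. The log2 difference lay between -0.83 and -0.65 whichever library was left out. A transcript model on the opposite strand, Gm43292, shares 485 bases of exon with Eif2ak3 and was not among the genes counted. The strand setting of the counting is not given, so reads of both cannot be told apart.

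Ern1 encodes IRE1 alpha, the kinase and RNase that splices the Xbp1 transcript. It was low, at 3.67, 2.87 and 4.10 CPM in hyperoxia and 4.14, 4.04 and 3.01 CPM in normoxia. The ranges overlapped, and the log2 difference of -0.07 ± 0.28 (SE) had a 95% interval of -0.71 to 0.56. Atf6 encodes the sensor that is cleaved in the Golgi into a transcription factor, and it stood at 16.8, 11.0 and 13.0 CPM in hyperoxia and 16.6, 17.4 and 14.98 CPM in normoxia. Hyperoxia library 1 lay among the normoxia libraries and the other two lay below them, and the log2 difference was -0.26 ± 0.22 (SE; edgeR adjusted p 0.651). With library size alone in place of TMM scaling, all hyperoxia libraries lay below normoxia for Atf6, by a narrow margin.

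All 3 transcription factors had lower means in hyperoxia. Ddit3 encodes CHOP, a factor of late ER stress that is linked to cell death. Ddit3 (ENSMUSG00000025408, chromosome 10, 127290774 to 127296288) stood at 134, 57.2 and 102 CPM in hyperoxia, against 177, 193 and 233 CPM in normoxia. The highest hyperoxia library was still below the lowest normoxia library, and hyperoxia library 2 was the lowest of all 6. Its log2 difference of -1.04 ± 0.31 (SE) was the most negative of the 34 genes, and the adjusted p was 0.239 by edgeR and 0.0625 by DESeq2. The log2 difference ranged from -1.31 to -0.74 when each library was left out, and it was -0.74 without hyperoxia replicate 2. Ddit3 shares 68 bases of exon with Mars on the opposite strand, which had at most 882 counts in a library, whereas Ddit3 had 3656 to 9063. A further Ensembl entry of the same symbol shares 105 bases of exon with Ddit3 and was not among the genes counted.

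Xbp1 encodes the factor made active by IRE1 splicing, and after Ppp1r15a it was the most abundant of the 34 genes per length. Xbp1 (ENSMUSG00000020484, chromosome 11, 5520659 to 5525893) stood at 699, 712 and 545 CPM in hyperoxia, against 937, 885 and 1003 CPM in normoxia. The groups did not overlap, and hyperoxia library 3 was the lowest. The log2 difference was -0.53 ± 0.21 (SE), with an adjusted p of 0.352 in edgeR. Counts per gene do not separate spliced from unspliced Xbp1 RNA, so the active form was not measured.

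Atf4 encodes the central factor of the integrated stress response, which is controlled mainly through translation. It stood at 176, 134 and 125 CPM in hyperoxia and 164, 196 and 191 CPM in normoxia. Hyperoxia library 1 overlapped with normoxia library 1, and the log2 difference of -0.34 ± 0.21 (SE) had an adjusted p of 0.537 in edgeR. Over the 6 sensors and transcription factors the median log2 difference was -0.44, and it stayed between -0.51 and -0.33 when each library was left out. Of the 6, 3 had groups that did not overlap, all 3 with hyperoxia below, as for 10.3% of all genes tested. In sorted bulk cells, fewer cells of a type and less RNA per cell cannot be told apart, which applies to each value here.

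**Figure D2:**
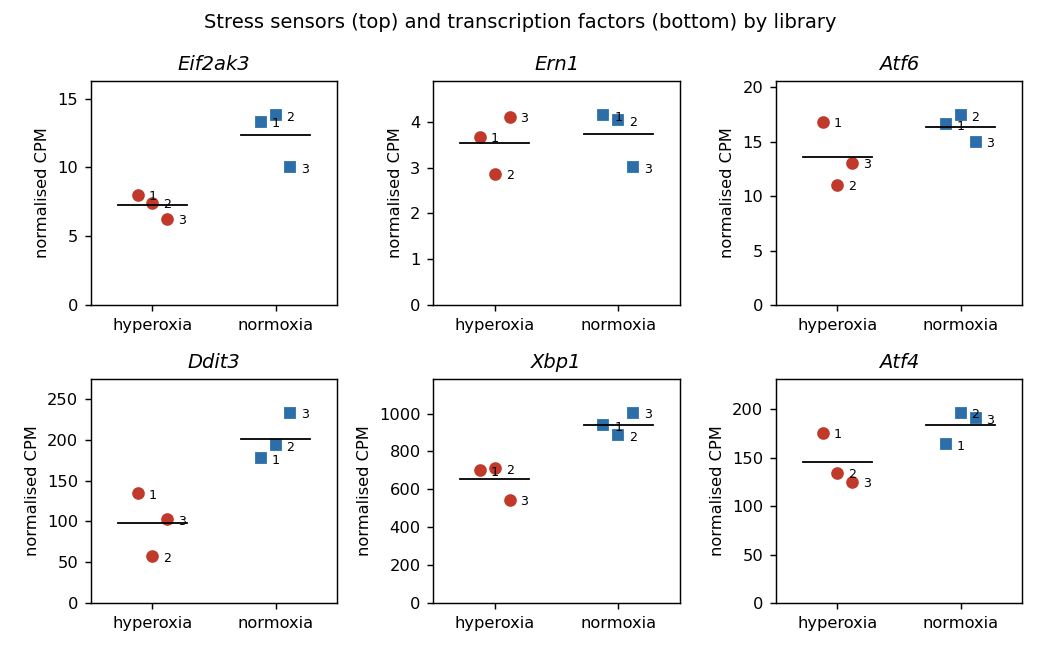
Normalised CPM (vertical axes, starting at 0) of 3 sensors and 3 transcription factors in each hyperoxia library (circles, left) and normoxia library (squares, right), numbered by replicate, with a line at each group's mean (n = 3). Eif2ak3, Ddit3 and Xbp1 show no overlap between the groups, whereas Ern1, Atf6 and Atf4 do.

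Among chaperones and folding enzymes the median log2 difference was 0.16, with 10 of 14 above 0, while Creld2 at -0.0015 crossed 0 under upper-quartile and median-of-ratios scaling. Sdf2l1, Hsp90b1 and Pdia3 had every hyperoxia library above every normoxia library, whereas Dnajb9 had a lower mean in hyperoxia. These 3 of 14 are 21.4%, against 9.56% of all genes tested. For 0 of the 14 every hyperoxia library lay below, against 10.3% of all genes. Sdf2l1 encodes an ER protein that works with the chaperone BiP. It (ENSMUSG00000022769, chromosome 16, 17130138 to 17132383) stood at 7.94, 9.50 and 13.2 CPM in hyperoxia, against 5.10, 5.74 and 5.65 CPM in normoxia. The normoxia libraries lay close together and all 3 hyperoxia libraries above them, for a log2 difference of 0.89 ± 0.25 (SE). Its adjusted p was 0.204 in edgeR, the lowest of the 34 genes, and 0.048 in DESeq2. Its log2 difference ranged from 0.67 to 1.07 when each library was left out.

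Hsp90b1 encodes GRP94, the HSP90 of the ER, which folds integrins and Toll-like receptors. It stood at 42.9, 44.2 and 56.9 CPM in hyperoxia, against 30.2, 30.9 and 38.0 CPM in normoxia, and the log2 difference was 0.54 ± 0.21 (SE; edgeR adjusted p 0.329). Pdia3 encodes ERp57, a disulfide isomerase that acts with calnexin and calreticulin and in the loading of MHC class I. It stood at 60.7, 75.9 and 78.4 CPM in hyperoxia, against 50.3, 53.1 and 58.2 CPM in normoxia. No library of either group crossed into the other, and the log2 difference was 0.41 ± 0.19 (SE; edgeR adjusted p 0.410). With library size alone in place of TMM scaling, Pdia3 overlapped between the groups.

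Pdia4, another disulfide isomerase, stood at 8.88, 6.89 and 11.1 CPM in hyperoxia and 5.24, 7.92 and 6.34 CPM in normoxia. Hyperoxia library 2 lay below normoxia library 2, and the log2 difference was 0.46 ± 0.27 (SE). Manf, a secreted protective factor induced by ER stress, stood at 14.9, 22.2 and 23.7 CPM in hyperoxia and 11.3, 15.3 and 18.5 CPM in normoxia. Hyperoxia library 1 lay within the normoxia range there, and the log2 difference was 0.43 ± 0.26 (SE), with an adjusted p of 0.523 in edgeR.

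Hspa5 encodes BiP, the main ER chaperone and the gene most often read as a gauge of ER stress. It stood at 732, 546 and 1079 CPM in hyperoxia and 693, 781 and 839.7 CPM in normoxia. Both the lowest and the highest library were from hyperoxia, and the means were 785 ± 271 CPM in hyperoxia, against 771 ± 73.7 CPM in normoxia (SD over 3 libraries). The log2 difference of 0.03 ± 0.28 (SE) had a 95% interval of -0.61 to 0.67, and it was -0.27 without hyperoxia replicate 3.

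Dnajb9 encodes ERdj4, a BiP cochaperone that restrains IRE1 and is known as an XBP1 target. Dnajb9 (ENSMUSG00000014905, chromosome 12, 44205559 to 44210326) stood at 41.9, 41.4 and 63.9 CPM in hyperoxia, against 62.3, 86.2 and 101.6 CPM in normoxia. Hyperoxia library 3 lay just above normoxia library 1, and the other two hyperoxia libraries lay below all of normoxia. Its log2 difference of -0.76 ± 0.27 (SE) had an adjusted p of 0.292 in edgeR and 0.153 in DESeq2. It was the one chaperone member under an unadjusted p of 0.05 in the lower direction.

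The 7 other chaperones and folding enzymes (Pdia6, Calr, Canx, Dnajb11, Dnajc3, Creld2 and Hyou1) had log2 differences of -0.15 for Canx to 0.27 for Pdia6, with groups that overlapped. Calnexin and calreticulin, the lectin chaperones of glycoproteins, stood close to 0, at -0.15 ± 0.28 for Canx and 0.06 ± 0.23 for Calr (SE). Hyou1, an ER chaperone of the HSP110 family, was near the low end at 1.07 ± 0.726 CPM in hyperoxia, against 1.14 ± 0.243 CPM in normoxia (SD over 3 libraries). Hyperoxia library 3 held the highest hyperoxia value for 11 of the 14 genes. That library also had the highest sums of macrophage markers (3028 CPM), dendritic markers (2068 CPM) and stromal markers (243 CPM). Cd74 alone made 1095 CPM of that dendritic sum. Plasma cells, which are rich in ER chaperones, had marker sums of 16.8, 138 and 22.1 CPM in hyperoxia libraries 1, 2 and 3 and of 12.8, 27.3 and 16.9 CPM in normoxia libraries 1, 2 and 3. Of the 138 CPM, 122 CPM were Jchain alone. Prdm1, at 6.09 to 13.8 CPM in hyperoxia and 10.7 to 14.7 CPM in normoxia, was a large part of the other sums. Of the 8 markers 4 were tested, 3 with a log2 difference above 0 and Prdm1 with one of -0.29. The part of these other cell types in the chaperone values was not tested. Without hyperoxia replicate 3 the median of the 14 genes was 0.07, and without hyperoxia replicate 1 it was 0.33.

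Promoters of many ER chaperone genes are known to carry the ER stress response element (ERSE), the site through which ATF6, with NF-Y, acts on chaperone genes. RefSeq windows in GRCm38.p6, from 250 bases before to 50 after each start site, were available for 30 of the 34 genes (not for Atf6, Hyou1, Manf and Slc7a5) and were searched on both strands for CCAAT, any 9 bases and CCACG in a row. A match was found for 7 of the 30 genes, all of them chaperones or folding enzymes, and for 0.137% of all 27025 genes with a window. Windows of the same length held it in 0.119% of cases. The matches are shown with 5 bases on either side, 5′ to 3′ on the strand of the gene. They are shown as letters that these 7 genes have in common. Capitals mark the element, which runs from CGTGG to ATTGG where it lies on the other strand.
Hspa5, chr2:34772020-34772048, plus strand: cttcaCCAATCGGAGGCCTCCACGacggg
Pdia6, chr12:17266486-17266514, plus strand: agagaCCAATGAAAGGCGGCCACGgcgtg
Dnajc3, chr14:118937822-118937850, plus strand: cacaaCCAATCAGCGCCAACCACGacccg
Canx, chr11:50325795-50325823, minus strand: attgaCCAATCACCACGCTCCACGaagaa
Hsp90b1, chr10:86705633-86705661, minus strand: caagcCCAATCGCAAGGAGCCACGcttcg
Hsp90b1, chr10:86705528-86705556, minus strand: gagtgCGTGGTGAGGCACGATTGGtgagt
Calr, chr8:84847070-84847098, minus strand: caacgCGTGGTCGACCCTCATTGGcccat
Creld2, chr15:88819515-88819543, plus strand: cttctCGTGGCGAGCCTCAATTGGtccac

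Hspa5, Pdia6, Dnajc3 and Canx hold the element in the direction of transcription, Calr and Creld2 in the other, and Hsp90b1 holds both at places that do not overlap. In these 7 genes the log2 difference ran from -0.15 to 0.54 with a median of 0.06. The 5 chaperone genes whose window held no ERSE match (Pdia3, Pdia4, Dnajb9, Dnajb11 and Sdf2l1) ran from -0.76 to 0.89 with a median of 0.41. Every hyperoxia library lay above every normoxia library for 1 of the 7, Hsp90b1, and for 2 of the 5, Pdia3 and Sdf2l1. Over all genes tested the share was 9.56%. Dnajb11 is counted as without a match, though its window held the ERSE-II element described below. A match describes letters and not binding.

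Of the degradation factors, Herpud1 had a log2 difference of 0.23 ± 0.23, Edem1 of -0.03 ± 0.19 (0.0016 under upper-quartile scaling) and Sel1l of -0.20 ± 0.20 (SE). Herpud1 encodes a membrane scaffold of the degradation complex, Edem1 a lectin that draws misfolded glycoproteins from folding, and Sel1l the adaptor of the ubiquitin ligase HRD1. All 3 overlapped between the groups, and their median was -0.03. Edem1 lay close to its mean in every library, at 123 ± 5.70 CPM in hyperoxia, against 126 ± 11.1 CPM in normoxia (SD over 3 libraries), with a 95% interval of its log2 difference of -0.45 to 0.39. The window of Herpud1 holds ERSE-II (ATTGG, any 1 base and CCACG), found in 0.0444% of all genes with a window and also in that of Dnajb11, and 1 C/EBP-ATF response element (CARE, TGATGNAAN), found in 4.50%. It is shown because matches to ERSE-II and to the CARE lie in the same window, with capitals for the elements, which do not overlap.
Herpud1 ERSE-II, chr8:94386372-94386392, plus strand: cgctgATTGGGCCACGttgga
Herpud1 CARE, chr8:94386311-94386329, plus strand: ggcggGTTGCATCAgcccg

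**Figure D3:**
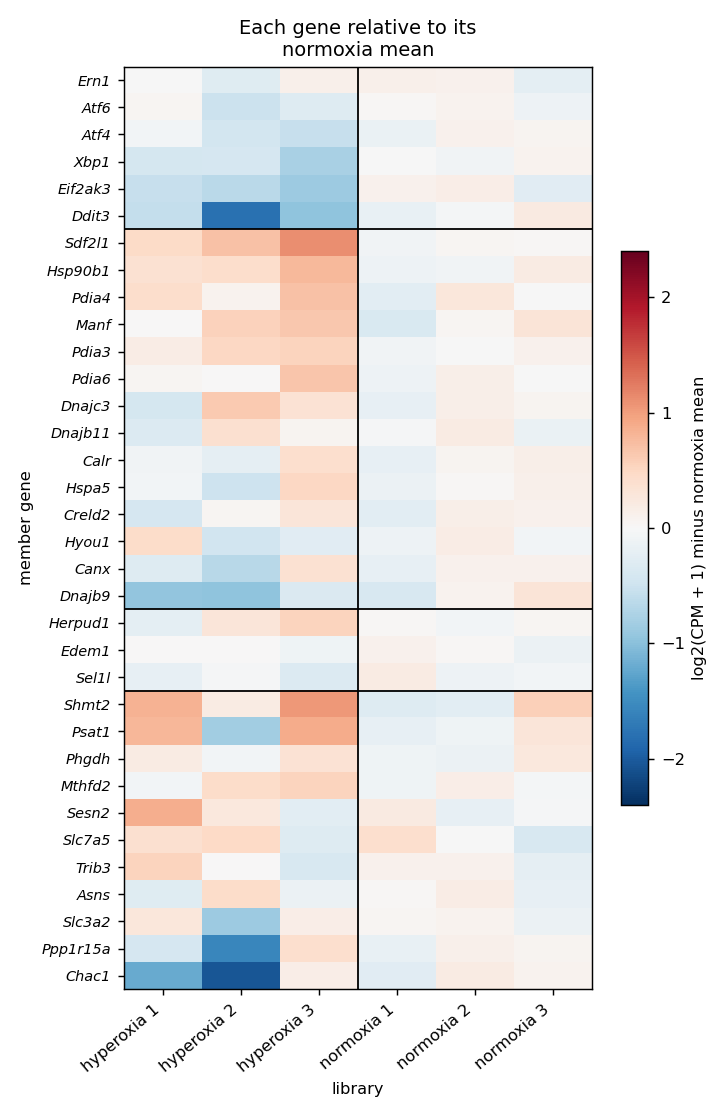
Colour gives log2(CPM + 1) of each gene minus its mean in normoxia, for each gene (rows, by role and fitted difference, sensors and factors at the top) in each library (columns, hyperoxia left of normoxia). Hyperoxia library 3 is the reddest of the hyperoxia columns for the chaperones, and hyperoxia library 2 holds the deepest blue cells, at Chac1, Ddit3 and Ppp1r15a.

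The 11 ATF4 targets had a median log2 difference of 0.21, with 8 above 0 and 3 below. In edgeR 0 of the 11 were under an unadjusted p of 0.05 in either direction, and the groups overlapped for all 11. Over all genes tested, 9.10% were higher and 3.91% lower at that p, and 9.56% had every hyperoxia library above normoxia and 10.3% below. Their fitted differences spread from -0.84 for Chac1 to 0.91 for Shmt2. The median was 0.36 without normoxia replicate 1, 0.09 without normoxia replicate 3 and 0.23 without hyperoxia replicate 2.

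The most abundant ATF4 target was Ppp1r15a, which feeds back on the response. Ppp1r15a encodes GADD34, the subunit that brings a phosphatase to eIF2 alpha and so ends the arrest of translation. Ppp1r15a (ENSMUSG00000040435, chromosome 7, 45522916 to 45526268) stood at 3178, 1418 and 5500.1 CPM in hyperoxia and 3670.2, 4566 and 4351 CPM in normoxia. Hyperoxia library 2 was the lowest and hyperoxia library 3 the highest of the 6, a 3.88-fold range within hyperoxia against 1.24-fold within normoxia. It took 0.583% of all counts in hyperoxia library 3, and its level per length was the highest of the 34 genes in both groups. The log2 difference was -0.32 ± 0.43 (SE), and 0.06 without hyperoxia replicate 2.

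Chac1 encodes an enzyme that degrades glutathione and is induced by ATF4 and CHOP. It stood at 4.45, 2.04 and 13.1 CPM in hyperoxia and 9.36, 13.4 and 12.3 CPM in normoxia. Hyperoxia libraries 1 and 2 lay below all of normoxia, while hyperoxia library 3 lay within it, a 6.44-fold range in hyperoxia. The log2 difference of -0.84 ± 0.57 (SE) was -1.86 without hyperoxia replicate 3 and -0.39 without hyperoxia replicate 2, and its lowest adjusted p over all settings was 0.167, in edgeR without hyperoxia replicate 3.

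Trib3 encodes a pseudokinase that feeds back on ATF4 and CHOP, and Sesn2 a sestrin that restrains growth signalling under stress. Trib3 had a mean of 12.5 ± 4.40 CPM in hyperoxia, against 11.7 ± 1.51 CPM in normoxia (SD over 3 libraries), and its log2 difference was 0.10 ± 0.28 (SE). Sesn2 had a mean of 258 ± 100.5 CPM in hyperoxia, against 202 ± 29.6 CPM in normoxia, and its log2 difference was 0.35 ± 0.30 (SE). Hyperoxia library 1, at 367 CPM, was the highest of the 6 libraries, a value picked out after all were seen. Without that library the log2 difference was 0.05.

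Among the genes of amino acid supply, Slc3a2 encodes the heavy chain CD98, the partner of the large neutral amino acid transporter that Slc7a5 encodes. Slc3a2 stood at 653, 297 and 607 CPM in hyperoxia and 559, 578 and 492 CPM in normoxia. Hyperoxia library 2 was the lowest of the 6, and the other two hyperoxia libraries were above all of normoxia. The log2 difference was -0.07 ± 0.31 (SE), and 0.23 without hyperoxia replicate 2. Slc7a5 had a log2 difference of 0.21 ± 0.30 and the asparagine synthetase gene Asns of 0.03 ± 0.25 (SE).

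The serine and one-carbon enzymes were few in counts. Phgdh and Psat1 encode enzymes of serine synthesis, and Shmt2 and Mthfd2 those of the mitochondrial folate cycle. All 4 had log2 differences above 0, at 0.50 ± 0.58, 0.60 ± 0.57, 0.91 ± 0.45 and 0.42 ± 0.30 (SE) in that order, and none had an unadjusted p under 0.05. Shmt2 stood at 4.33, 2.44 and 5.20 CPM in hyperoxia and 1.40, 1.51 and 3.47 CPM in normoxia. Normoxia library 3 lay above hyperoxia library 2, so the groups overlapped, and the adjusted p was 0.431 in edgeR. Psat1, named after its values were seen, stood at 5.08, 0.971 and 5.51 CPM in hyperoxia and 2.06, 2.26 and 3.29 CPM in normoxia. Epithelial markers summed to 259, 12.2 and 219.6 CPM in hyperoxia libraries 1, 2 and 3 and to 87.5, 122 and 196 CPM in normoxia libraries 1, 2 and 3. Hyperoxia library 2 was thus the lowest and hyperoxia libraries 1 and 3 the highest of the 6 for both Psat1 and these markers, and the part of epithelial RNA in Psat1 was not tested.

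Letters of the CARE were found in the windows of Asns, Chac1 and Trib3 among the ATF4 targets. With Herpud1 these are 4 of the 30 genes with a window, against 4.50% of all genes with one. The other ATF4 targets with a window held no match, and a match does not show binding. Those of Asns and Chac1 lie before the RefSeq start site and are shown with capitals for the element, which ends in CATCA where it lies on the other strand.
Asns, chr6:7693219-7693237, minus strand: ccacaTGATGAAACttccc
Chac1, chr2:119351043-119351061, plus strand: ctgccGTTGCATCActcct

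Levels per length, in CPM per kilobase of exon, set the order of the 34 genes. Ppp1r15a led in both groups, at 1146 ± 697 in hyperoxia and 1429 ± 159 in normoxia (SD, n = 3 each). After it came Xbp1 (201 ± 28.6 in hyperoxia and 290.0 ± 18.2 in normoxia), Hspa5 (186 ± 64.0 in hyperoxia and 182 ± 17.4 in normoxia) and Slc3a2 (147 ± 54.9 in hyperoxia and 154 ± 12.8 in normoxia). In hyperoxia the means of Xbp1, Hspa5 and Slc3a2 lay closer together than the sum of their SDs, as did those of Hspa5 and Slc3a2 in normoxia, where Xbp1 stood further above both. Ddit3, at 57.2 ± 22.6 in hyperoxia and 117 ± 16.7 in normoxia, had a mean above that of Atf4 in normoxia (78.0 ± 7.32) but not in hyperoxia (61.6 ± 11.4). The order in hyperoxia rested on library 2, where Ddit3 was at 33.4 and Atf4 at 57.0. In hyperoxia library 1 Ddit3 was at 78.4 and Atf4 at 74.5, and in hyperoxia library 3 Ddit3 was at 59.8 and Atf4 at 53.1. The sensors lay far lower, with Eif2ak3 at 1.20 ± 0.146 in hyperoxia and 2.05 ± 0.341 in normoxia and Ern1 at 0.434 ± 0.0768 in hyperoxia and 0.456 ± 0.0768 in normoxia. Hyou1 (0.148 ± 0.1004 in hyperoxia and 0.158 ± 0.0336 in normoxia) and Phgdh (0.222 ± 0.0900 in hyperoxia and 0.156 ± 0.0885 in normoxia) ended the order.

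**Figure D4:**
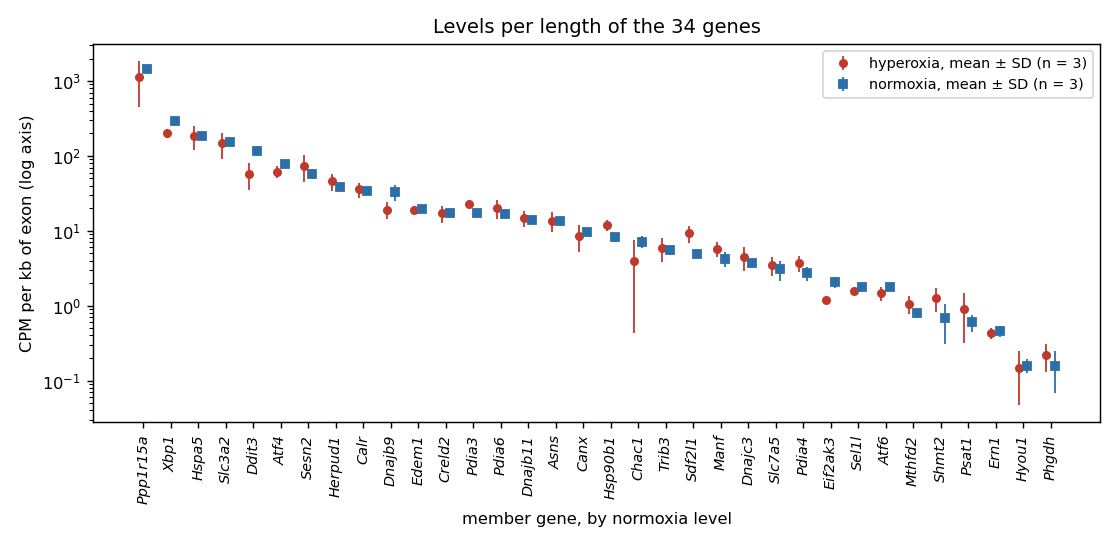
Mean CPM per kilobase of exon (vertical log axis) with the SD over 3 libraries for each of the 34 genes (horizontal axis, ordered by normoxia level), hyperoxia as circles left of normoxia as squares. Ppp1r15a stands alone at the top in both groups, and Ddit3 and Xbp1 show the clearest gaps between groups among the abundant genes.

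Further genes of both pathways were counted from lists that hold none of the 34. Of 65 other unfolded protein response genes, 64 were tested. Of these, edgeR gave 6 an unadjusted p under 0.05 in the higher direction and 0 in the lower, which is 9.38% and 0% against 9.10% and 3.91% of all genes tested. The higher share was thus near that of all genes. DESeq2 called 2 of the 64 higher, against 3.65% of all genes. In edgeR 0 passed an adjusted p of 0.05, and the median log2 difference was -0.03. The 3 with the lowest p were Txndc5, Kdelr3 and Lman1. Txndc5 encodes ERp46, a disulfide isomerase that is abundant in secretory cells and endothelium. It stood at 8.88, 10.7 and 8.40 CPM in hyperoxia, against 3.74, 2.55 and 3.13 CPM in normoxia. The groups did not overlap, with a log2 difference of 1.57 ± 0.25 (SE) and adjusted p of 0.0974 by edgeR and 2.67e-05 by DESeq2.

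Kdelr3 encodes a receptor that returns ER proteins from the Golgi, and it stood at 0.278, 3.60 and 3.41 CPM in hyperoxia and 0.0936, 0.222 and 0.591 CPM in normoxia. Hyperoxia library 1 lay within the normoxia range, and stromal markers were likewise lower in that library (35.2 CPM) than in hyperoxia libraries 2 and 3 (209 and 243 CPM). Lman1 encodes a cargo receptor for glycoproteins leaving the ER, and it stood at 2.55, 3.60 and 5.37 CPM in hyperoxia, against 1.64, 2.15 and 1.52 CPM in normoxia. All 3 hyperoxia libraries were above normoxia, and the log2 difference was 1.12 ± 0.35 (SE; edgeR adjusted p 0.253). The part of other cell types in Txndc5, Kdelr3 and Lman1 was not tested.

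Of 57 other integrated stress response genes, 53 were tested. Of these, 4 had an unadjusted p under 0.05 in edgeR in the higher direction and 3 in the lower. These are 7.55% and 5.66%, near the 9.10% and 3.91% of all genes tested. DESeq2 called 0 of the 53, against 3.65% of all genes as higher and 0.411% as lower. In edgeR 0 passed an adjusted p of 0.05, and the median log2 difference was 0.04. Those with the lowest p were Atf3, Bbc3 and Aldh18a1. Atf3, a factor induced by ATF4 and by many other signals, stood at 787, 519 and 633 CPM in hyperoxia, against 1049, 1224 and 1018 CPM in normoxia, below normoxia in all 3 hyperoxia libraries, and the log2 difference was -0.76 ± 0.23 (SE; edgeR adjusted p 0.243). Bbc3, which encodes the death protein PUMA and is known as a target of CHOP and p53, stood at 5.19, 7.23 and 5.45 CPM in hyperoxia, against 10.1, 9.05 and 8.76 CPM in normoxia. Its log2 difference was -0.64 ± 0.23 (SE), with an adjusted p of 0.297 in edgeR. Aldh18a1, which encodes an enzyme of proline synthesis, stood at 4.199, 2.82 and 4.44 CPM in hyperoxia, against 1.40, 2.42 and 2.16 CPM in normoxia. It was above normoxia in all 3 hyperoxia libraries, and its log2 difference was 0.94 ± 0.33 (SE; edgeR adjusted p 0.299).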

How the data were processed

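RNA of sorted neutrophils from 6 libraries was measured by RNA-seq. The values deposited by the authors are raw read counts by gene, with 1 table a library. STAR 2.4.2a, DESeq2 1.16.1 and the build GRCm38 are listed, per the submitters' processing notes. Which program counted the reads, with which strand setting and gene annotation, is not given in the sources used here. The 95% intervals of log2 differences come from the edgeR fit and include the spread between libraries, whereas the level of 3 counts covers counting error only.

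Symbols, coordinates and exon lengths came from GENCODE M21 by Ensembl ID. Part of the genotype is not reported here. Groups came from the housing label, and replicate numbers follow accession order and pair nothing. Genes were filtered with filterByExpr (12908 left) and tested with edgeR 4.0.16 in R 4.3.3, with TMM scaling, robust quasi-likelihood fits and Benjamini-Hochberg adjustment over all genes, two-sided. SE was derived from the F statistic. DESeq2 1.42.0, limma 3.58.1, other scalings and filters, a threshold of 0.1 and leaving out each library were the alternatives. The edgeR fit was tested on simulated data, counts drawn with known fold changes. No 2 libraries matched within sampling noise (chi-square per degree of freedom of at least 29.8).

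The members and lists were chosen with earlier results of these data known. Values by library are given for sensors, transcription factors, the 8 other members with the lowest p, the 3 most abundant others and the 3 genes of each further list with the lowest p.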

Additional observations from a re-analysis of the deposited data

How the results depend on the processing

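Across 14 other settings, 22 of the 34 genes kept the sign of their log2 difference, among them Eif2ak3, Atf6, Atf4, Xbp1, Ddit3, Dnajb9, Sdf2l1, Hsp90b1, Pdia3 and Pdia4, and the adjusted p of 1 gene, Sdf2l1 in DESeq2, was under 0.05 in some setting. No gene other than Sdf2l1 changed its side of the threshold. The other 12 lay near 0 or rested on 1 library; the cause was not tested. Hspa5 was -0.023 in limma-voom. With sample quality weights Dnajb11 was -0.057, Trib3 -0.0043 and Asns -0.11. Creld2 was 0.00043 in DESeq2, 0.00028 with median-of-ratios factors, 0.024 with upper-quartile scaling and 0.0094 without a filter, and Edem1 was 0.0016 with upper-quartile scaling. With each library left out, ranges that crossed 0 were -0.27 to 0.25 for Hspa5, -0.15 to 0.19 for Calr, -0.50 to 0.076 for Canx, -0.11 to 0.26 for Dnajb11, -0.18 to 0.21 for Creld2, -0.78 to 0.23 for Hyou1, -0.034 to 0.091 for Edem1, -0.19 to 0.078 for Ern1, -0.16 to 0.31 for Trib3, -0.21 to 0.22 for Asns, -0.87 to 0.064 for Ppp1r15a and -0.24 to 0.23 for Slc3a2.

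The count of all genes called was 0 in the main test, 513 in DESeq2, 36 in limma-voom with quality weights, 214 without a filter and 30 at a threshold of 0.1, and 0 to 176 with each library left out. DESeq2 called 1 of the 34 genes as higher. At an unadjusted p under 0.05, a count added after seeing the data, the genes counted as higher were 1 with library size alone and 1 to 7 with each library left out, and those counted as lower were 1 to 4. The median of the degradation factors ran from -0.034 to 0.091, and that of the ATF4 targets from 0.090 to 0.36, with each library left out. With library size alone, every hyperoxia library lay above every normoxia library for 2 of the 34 genes and below for 4. Under library size alone, the shares of all genes without overlap or at an unadjusted p under 0.05 were not computed. No paired analysis was possible because the labels give no replicate numbers. Depth limits Phgdh, Hyou1, Shmt2 and Psat1, whose lowest libraries held 11, 35, 60 and 62 counts.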
